A study of Mus musculus with 12 samples.

Results

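The BMP and Nodal branches of TGF-beta signalling were followed through 10 genes in mouse embryonic stem (ES) cells that differed in Esrrb, the gene of the orphan nuclear receptor ERRb. The genes were the ligands Bmp4, Nodal and Gdf3, the Nodal antagonists Lefty1 and Lefty2, the transcriptional targets Id1, Id2 and Id3, and the inhibitory Smads Smad6 and Smad7. They were taken by symbol from the 22180 genes that the array annotation names by a single symbol. All 10 were measured, each by 1 probe set, so no second probe set of a gene could be compared.

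BMP ligands bind paired type I and type II receptor kinases that phosphorylate Smad1, Smad5 and Smad9. Nodal, Activin and Gdf3 act through related receptors, in part with the co-receptor Cripto (Tdgf1), on Smad2 and Smad3. Both sets of Smads join Smad4 and enter the nucleus. BMP signalling induces the Id genes, whose products bind bHLH transcription factors and keep them from DNA, and in serum-free culture this is known to help LIF hold mouse ES cells against neural differentiation. Nodal signalling induces Lefty1 and Lefty2, which are secreted and block Nodal, and Smad6 and Smad7 are feedback inhibitors within the cell.

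The cells were of K3, a mouse ES line. Of 12 arrays, 4 were labelled WT/mock (Esrrb intact), 4 KO/mock (Esrrb knocked out) and 4 KO/ERRb-wt (knockout cells given a lentivirus that expresses ERRb). Clones 5-2 and 5-5 made up the first group, 8-3 and 8-4 the second and 12-1 and 12-3 the third, with 2 arrays for every clone, so any difference between groups also holds whatever sets those clones apart. All cells, controls included, were grown in N2B27, a serum-free medium, with LIF and the inhibitors CH99021 (of GSK3) and PD0325901 (of MEK), then for 3 days in N2B27 with both inhibitors and doxycycline. The labels do not say what the mock cells received or what doxycycline switched on. The values are log2 expression, so a difference of 1 is a doubling, and array medians lay between 5.00 and 5.07.

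Esrrb itself went against the labels. Its probe set read 7.38 ± 0.0041 (SD, n = 4) for WT/mock, 7.66 ± 0.27 for KO/mock and 6.73 ± 0.21 for KO/ERRb-wt. KO/ERRb-wt was lower than KO/mock by 0.93 ± 0.13 (SE; limma, adjusted p = 0.00436) and lower than WT/mock by 0.65 ± 0.13 (adjusted p = 0.00557). KO/mock minus WT/mock was 0.28 ± 0.13 (adjusted p = 0.324). The labels do not give the position of the lesion, so this probe set may check neither label. Both KO groups are labelled knockout, and the source of the difference between them is not known. Whether the arrays match their labels was not tested, and groups are named by their labels throughout. Of 8 shared pluripotency markers 7 had a mean log2 level of at least 6, up to 12.16 for Nanog, as had all 10 naive markers. Dppa5a, at 4.95, was the exception among the shared markers. That level was also reached by 6 of 9 formative and primed epiblast genes, 3 of 10 primitive endoderm genes, 2 of 7 mesoderm and definitive endoderm genes, 2 of 8 neuroectoderm genes, 5 of 9 trophoblast genes and 1 of 10 feeder fibroblast genes, Vim.

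The promoters of Bmp4, which had the largest difference among the 10 genes, and of Id2 and Id3, which lay on opposite sides of WT/mock on the arrays labelled KO, are shown for orientation. They are the 250 bases before the annotated start, 5′ to 3′, from RefSeq on GRCm38.p6. Windows of 5 of the 10 genes were searched, and promoters of the other members were not examined. Capitals mark a match to any of 3 motifs searched on both strands: AAGGTCA, the half-site bound by ERR receptors, GTCTAGAC, a palindrome bound by Smads, and GGCGCC, a GC-rich element bound by Smads downstream of BMP.
Bmp4, chr14:46390670-46390919, minus strand: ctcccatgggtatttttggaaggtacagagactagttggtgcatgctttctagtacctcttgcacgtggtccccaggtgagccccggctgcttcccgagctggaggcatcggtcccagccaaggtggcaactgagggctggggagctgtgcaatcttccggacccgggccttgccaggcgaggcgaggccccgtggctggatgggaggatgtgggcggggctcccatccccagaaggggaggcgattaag
Id2, chr12:25096093-25096342, minus strand: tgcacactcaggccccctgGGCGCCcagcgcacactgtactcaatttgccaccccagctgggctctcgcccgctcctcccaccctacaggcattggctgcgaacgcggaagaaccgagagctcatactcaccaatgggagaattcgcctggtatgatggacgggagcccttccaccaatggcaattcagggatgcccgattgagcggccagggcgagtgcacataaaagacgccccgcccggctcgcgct
Id3, chr4:136143572-136143821, plus strand: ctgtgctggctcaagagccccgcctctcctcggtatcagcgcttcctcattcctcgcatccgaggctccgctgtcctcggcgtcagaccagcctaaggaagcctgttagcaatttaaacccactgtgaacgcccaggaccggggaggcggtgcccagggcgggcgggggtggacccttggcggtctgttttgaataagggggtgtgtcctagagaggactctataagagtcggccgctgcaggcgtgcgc

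Among these 3 sequences the only match was the GGCGCC of Id2, 226 to 231 bases before the start. The windows of Nodal and Smad6 held none of the motifs. Of 32851 promoter windows of this length, 9.59% held GGCGCC, 4.08% AAGGTCA and 0.167% GTCTAGAC. No match says only that these letters are not in these windows.

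Bmp4, the BMP ligand of the set, had its lowest levels on KO/ERRb-wt. The WT/mock arrays read 10.02, 10.00, 10.04 and 10.10, the KO/mock arrays 9.94, 9.75, 9.98 and 10.34, and the KO/ERRb-wt arrays 8.34, 8.58, 8.50 and 8.75. The KO/ERRb-wt arrays of both clones were low, with no overlap, while the other groups overlapped. Against KO/mock, Bmp4 fell by 1.46 ± 0.12 (SE; limma, adjusted p = 0.000215), or 2.75-fold, and ranked 4 among 22180 genes by the size of the difference. Against WT/mock it fell by 1.50 ± 0.12 (adjusted p = 1.64e-05), or 2.82-fold, and ranked 39. KO/mock minus WT/mock gave -0.04 ± 0.12 (95% interval -0.30 to 0.23; adjusted p = 0.936). An exact two-sided permutation of 4 against 4 arrays gave p = 0.0286 for both decreases, the smallest it allows, and ignores that arrays share clones. On clone averages, 2 clones against 2, the difference from KO/mock had an adjusted p of 0.0932, and no probe set of the whole table was called in that comparison. In bulk RNA, fewer cells that express a gene and less RNA per cell cannot be told apart.

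The naive pluripotency markers differed in the same comparison. Of 10 such genes, 1 was called higher (Dppa3) and 6 lower (Klf4, Klf5, Tfcp2l1, Tbx3, Prdm14 and Tcl1) on KO/ERRb-wt against KO/mock. Of 8 shared pluripotency genes 2 were called, both lower. Nanog fell by 0.25 ± 0.05 (limma, adjusted p = 0.0196) and Utf1 by 0.35 ± 0.05 (adjusted p = 0.00694). Of 10 primitive endoderm genes, Dab2 was called higher and Sox7 and Lama1 lower. No trophoblast gene and no mesoderm and definitive endoderm gene was called. In that comparison 4.40% of all genes were called, and 8.30% of those with a mean of at least 6. The summed linear level of the 10 naive genes on KO/ERRb-wt ranged from 9371 to 9997, against 10528 to 10947 on KO/mock and 10755 to 11347 on WT/mock. The summed level of 9 formative and primed epiblast genes ranged from 3349 to 3391, against 2471 to 2983 and 1938 to 2230. Of these 9 genes 1 was called on KO/ERRb-wt against KO/mock, Dnmt3b, the most abundant, which rose by 0.59 ± 0.12 (limma, adjusted p = 0.0224). The other 8 were not called, and Dnmt3a (-0.087), Cldn6 (-0.16) and Zic2 (-0.030) had differences below 0. The feeder fibroblast genes summed to 2156 to 2186, against 1755 to 2133 and 1224 to 1527, with Vim the one gene at a mean of at least 6 and Lum lowest at 3.17. None of these 10 was called on KO/ERRb-wt against KO/mock. The 8 neuroectoderm genes summed to 534 to 582, against 432 to 503 and 442 to 508. Of these 1 was called in that comparison, Tubb3, which rose by 0.67 ± 0.13 (limma, adjusted p = 0.0207). The other 7 were not called, and Sox1 (-0.049), Pax6 (-0.17) and Map2 (-0.092) had differences below 0. The part of these markers in the Bmp4 difference was not tested.

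**Figure D1:**
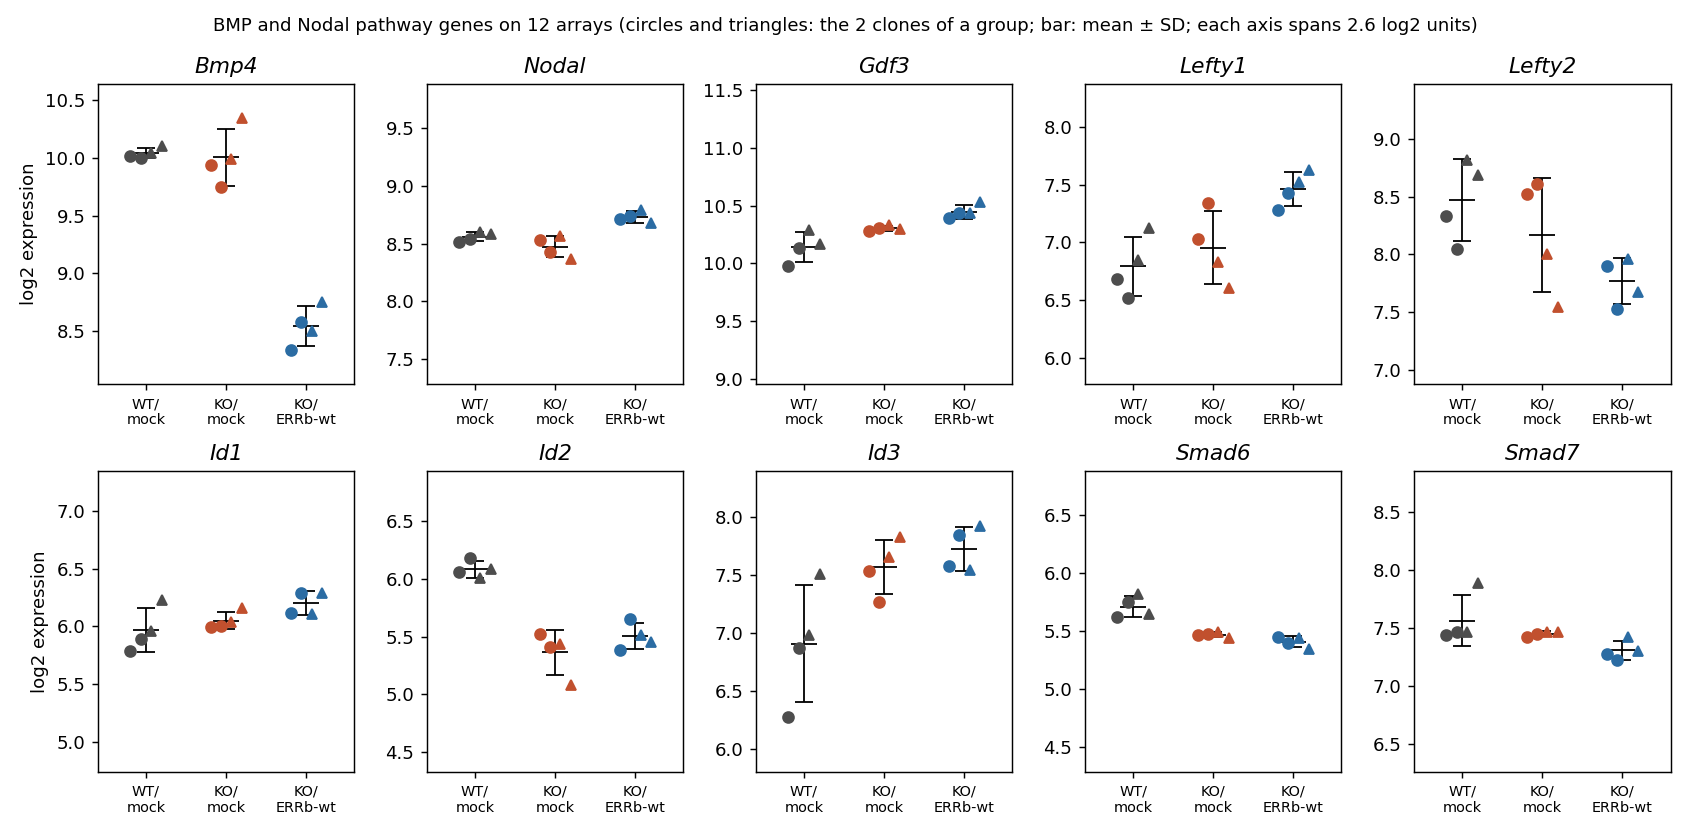
Log2 expression of the 10 genes on each of the 12 arrays, by labelled group; circles and triangles are the 2 clones of a group, and the bar gives the mean ± SD of 4 arrays. Bmp4 on the arrays labelled KO/ERRb-wt lies between 8.34 and 8.75, below all others, and Id2 on the arrays labelled WT/mock lies between 6.00 and 6.18, above all others.

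Bmp4 lies on chromosome 14, whose genes were lower as a group on the arrays labelled KO. Over the 343 genes of that chromosome whose log2 mean reached 6, the median difference was -0.41 for KO/mock minus WT/mock. Bmp4, at -0.04, stood above that median by 0.37, and 316 of the genes lay lower. For KO/ERRb-wt minus KO/mock the chromosome's median was -0.06, with 5% of its genes below -0.44, and Bmp4 had the lowest difference of the 343. For KO/ERRb-wt minus WT/mock, 3 of the genes lay lower than Bmp4. Relative to the chromosome's median, the difference of Bmp4 on KO/ERRb-wt was -1.40 from KO/mock and -1.02 from WT/mock.

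**Figure D2:**
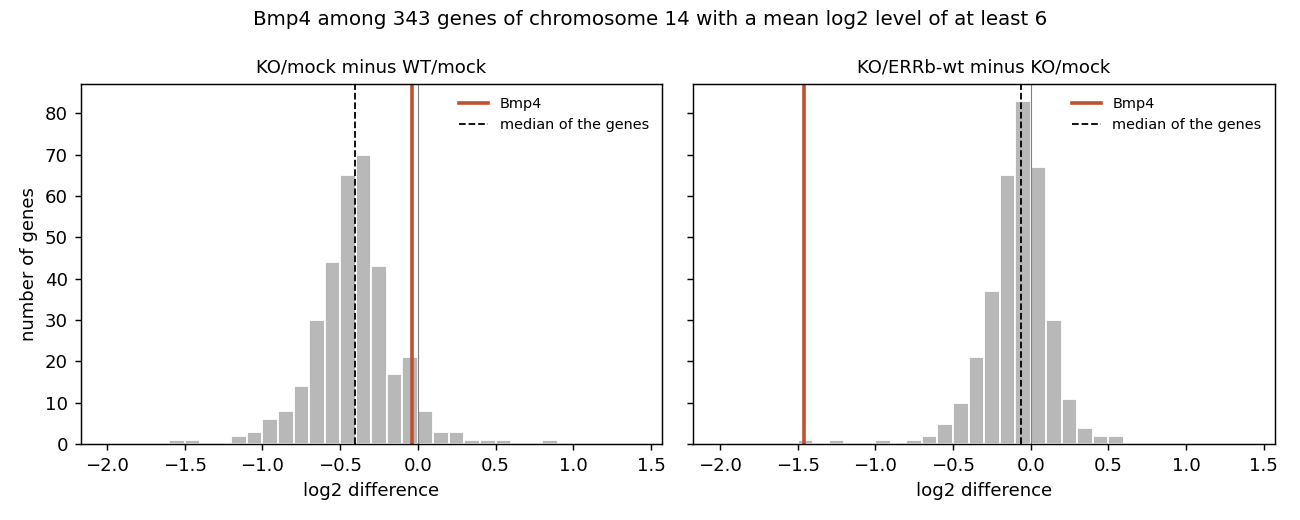
Number of chromosome 14 genes (vertical axis) by log2 difference (horizontal axis, bins of 0.1) for KO/mock minus WT/mock and KO/ERRb-wt minus KO/mock, with Bmp4 as the solid line and the median of the 343 genes as the dashed line. Bmp4 sits to the right of the median at -0.04 in the first comparison and at the far left at -1.46 in the second.

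Nodal and Gdf3, ligands that signal through Smad2 and Smad3, differed by small amounts, and both were highest on the arrays labelled KO/ERRb-wt. Nodal read 8.52, 8.54, 8.60 and 8.58 on WT/mock, 8.53, 8.43, 8.57 and 8.37 on KO/mock, and 8.71, 8.74, 8.79 and 8.68 on KO/ERRb-wt. The last group overlapped neither other. Nodal rose by 0.26 ± 0.06 over KO/mock (limma, adjusted p = 0.041), while the difference from WT/mock of 0.17 ± 0.06 did not pass (adjusted p = 0.0794). The call against KO/mock ended when any of 10 single arrays was left out, namely all but replicate 2 of WT/mock clone 5-5 and replicate 1 of KO/mock clone 8-4, with adjusted p up to 0.101. It also ended when any clone but 5-5 was left out, with adjusted p up to 0.169, and when the array medians were set equal (adjusted p = 0.0502).

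Gdf3 read 9.97, 10.13, 10.29 and 10.17 on WT/mock, 10.28, 10.30, 10.33 and 10.30 on KO/mock, and 10.39, 10.43, 10.43 and 10.53 on KO/ERRb-wt. The KO/ERRb-wt arrays lay above all others. Gdf3 rose by 0.31 ± 0.07 over WT/mock (limma, adjusted p = 0.0101). Its differences of 0.16 ± 0.07 between KO/mock and WT/mock and 0.14 ± 0.07 between KO/ERRb-wt and KO/mock did not pass (adjusted p = 0.261 and 0.289). Without WT/mock clone 5-2 the difference from WT/mock was 0.22 (adjusted p = 0.0865), and without KO/ERRb-wt clone 12-3 it was 0.27 (adjusted p = 0.0801).

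Lefty1 and Lefty2, neighbouring and closely related genes of chromosome 1 that both encode Nodal antagonists, lay on opposite sides of WT/mock on the arrays labelled KO/ERRb-wt. Lefty1 read 6.69, 6.52, 6.84 and 7.12 on WT/mock, 7.03, 7.34, 6.83 and 6.60 on KO/mock, and 7.28, 7.43, 7.52 and 7.62 on KO/ERRb-wt. Lefty2 read 8.33, 8.04, 8.82 and 8.69, then 8.52, 8.61, 8.00 and 7.54, then 7.90, 7.53, 7.96 and 7.67 on the same groups. For both genes the KO/ERRb-wt and WT/mock arrays did not overlap, Lefty1 higher and Lefty2 lower, and the KO/mock arrays spread across both. Lefty1 rose by 0.67 ± 0.16 over WT/mock (limma, adjusted p = 0.015), a call that ended without WT/mock clone 5-2 (0.48, adjusted p = 0.16) or KO/ERRb-wt clone 12-3 (0.56, adjusted p = 0.129). Lefty2 differed from WT/mock by -0.70 ± 0.23, which did not pass (adjusted p = 0.0651). It passed in 7 of 27 alternative settings, with an adjusted p as low as 0.0176 without KO/mock clone 8-4. Against KO/mock, neither the 0.51 ± 0.16 of Lefty1 (adjusted p = 0.114) nor the -0.40 ± 0.23 of Lefty2 (adjusted p = 0.388) passed.

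Within groups the Lefty genes lay on the same side, by clone. Both were lower in KO/mock clone 8-4 than in clone 8-3, Lefty1 by 0.47 ± 0.15 (SE) and Lefty2 by 0.79 ± 0.19, and both were higher in WT/mock clone 5-5 than in clone 5-2, by 0.38 ± 0.15 and 0.56 ± 0.19. None of these clone differences, 2 arrays against 2, passed (limma with the 6 clones as groups, adjusted p from 0.495 to 0.615). Only 2 of 22180 genes, or 0.00902%, were called between the KO/mock clones, and none within the other groups. Taken as deviations from the group means over the 12 arrays, Lefty1 and Lefty2 correlated at r = 0.77, whereas over the values themselves r was -0.18. These are descriptions of arrays that share clones. The sources used here do not say whether the probe sets of these related genes share probes.

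The Id genes, the main BMP targets of the set, differed in direction. Id2 was lower on the arrays labelled KO/mock and KO/ERRb-wt than on WT/mock. It read 6.06, 6.18, 6.00 and 6.08 on WT/mock, 5.53, 5.41, 5.44 and 5.08 on KO/mock, and 5.39, 5.65, 5.51 and 5.46 on KO/ERRb-wt. All 4 WT/mock arrays lay above the other 8. Id2 fell by 0.72 ± 0.10 on KO/mock (limma, adjusted p = 0.00175) and by 0.58 ± 0.10 on KO/ERRb-wt (adjusted p = 0.00188). KO/ERRb-wt minus KO/mock was 0.14 ± 0.10 (95% interval -0.08 to 0.35; adjusted p = 0.484). Both decreases held without any single array or clone. The one on KO/mock did not pass on clone averages (adjusted p = 0.0835). The promoter printed above with the GGCGCC match is that of Id2. Of all promoter windows 9.59% held this motif, and its use in these cells was not tested.

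Id3 lay on the other side. It read 6.27, 6.87, 6.98 and 7.51 on WT/mock, 7.53, 7.27, 7.65 and 7.83 on KO/mock, and 7.58, 7.85, 7.54 and 7.93 on KO/ERRb-wt. The WT/mock arrays spread widest, with clone 5-2 low (mean 6.57) and clone 5-5 nearer to the other groups (mean 7.25). Id3 rose by 0.82 ± 0.22 on KO/ERRb-wt over WT/mock (limma, adjusted p = 0.0254), and the 0.66 ± 0.22 of KO/mock over WT/mock did not pass (adjusted p = 0.137). Without WT/mock clone 5-2 these differences were 0.48 (adjusted p = 0.166) and 0.33 (adjusted p = 0.564). Without clone 5-5 they were 1.16 and 1.00, and the latter then passed (adjusted p = 0.0189). Leaving out either array of WT/mock clone 5-2, or replicate 2 of KO/ERRb-wt clone 12-1 or of clone 12-3, also ended the KO/ERRb-wt call (adjusted p up to 0.0705), as did leaving out clone 12-1 (adjusted p = 0.0895) or clone 12-3 (adjusted p = 0.107).

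Id1 read 5.79, 5.90, 5.96 and 6.23 on WT/mock, 5.99, 6.01, 6.04 and 6.16 on KO/mock, and 6.12, 6.29, 6.11 and 6.29 on KO/ERRb-wt. The groups overlapped, and no difference passed. The largest was 0.23 ± 0.09 for KO/ERRb-wt minus WT/mock (limma, adjusted p = 0.12; 95% interval 0.03 to 0.44). Id1 was not lower on the arrays where Bmp4 was lower: KO/ERRb-wt minus KO/mock was 0.15 ± 0.09 (95% interval -0.05 to 0.36). Its level was low, with a mean of 6.07 over the 12 arrays, and a link between Bmp4 and Id1 was not tested. Id1 and Id3 varied together from array to array, with r = 0.89 over the 12 arrays and r = 0.93 over deviations from the group means, whereas Id2 and Id3 had r = -0.70 and -0.14. These r describe 12 arrays that share clones. Id1 read higher on replicate 2 than on replicate 1 in every clone, and Id3 did so in every clone but 8-3. The part of the replicate number in these r was not tested.

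Of the inhibitory Smads, Smad6 was lower on both knockout-labelled groups than on WT/mock, and Smad7 passed in no comparison. Smad6, which acts mainly on BMP signals, read 5.62, 5.75, 5.82 and 5.65 on WT/mock, 5.46, 5.48, 5.49 and 5.44 on KO/mock, and 5.45, 5.39, 5.44 and 5.34 on KO/ERRb-wt. Both knockout-labelled groups lay below WT/mock without overlap. Smad6 fell by 0.30 ± 0.06 on KO/ERRb-wt (limma, adjusted p = 0.00447) and by 0.24 ± 0.06 on KO/mock (adjusted p = 0.0426). On clone averages the former had an adjusted p of 0.0675. The latter call ended when any single array but WT/mock clone 5-5 replicate 2 was left out, when any clone was left out and with the replicate number as a block (adjusted p = 0.0609), with adjusted p up to 0.268 on clone averages. Levels of Smad6 and Id2 averaged under 6 on the log2 scale, and no detection call accompanies them.

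Smad7, which inhibits both branches, read 7.44, 7.47, 7.46 and 7.89 on WT/mock, 7.42, 7.45, 7.47 and 7.46 on KO/mock, and 7.28, 7.22, 7.42 and 7.31 on KO/ERRb-wt. No difference passed. KO/ERRb-wt minus WT/mock was -0.26 ± 0.10 (limma, adjusted p = 0.0971). The WT/mock array at 7.89, clone 5-5 replicate 2, stood apart, and without it the difference was -0.15 (adjusted p = 0.125).

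**Figure D3:**
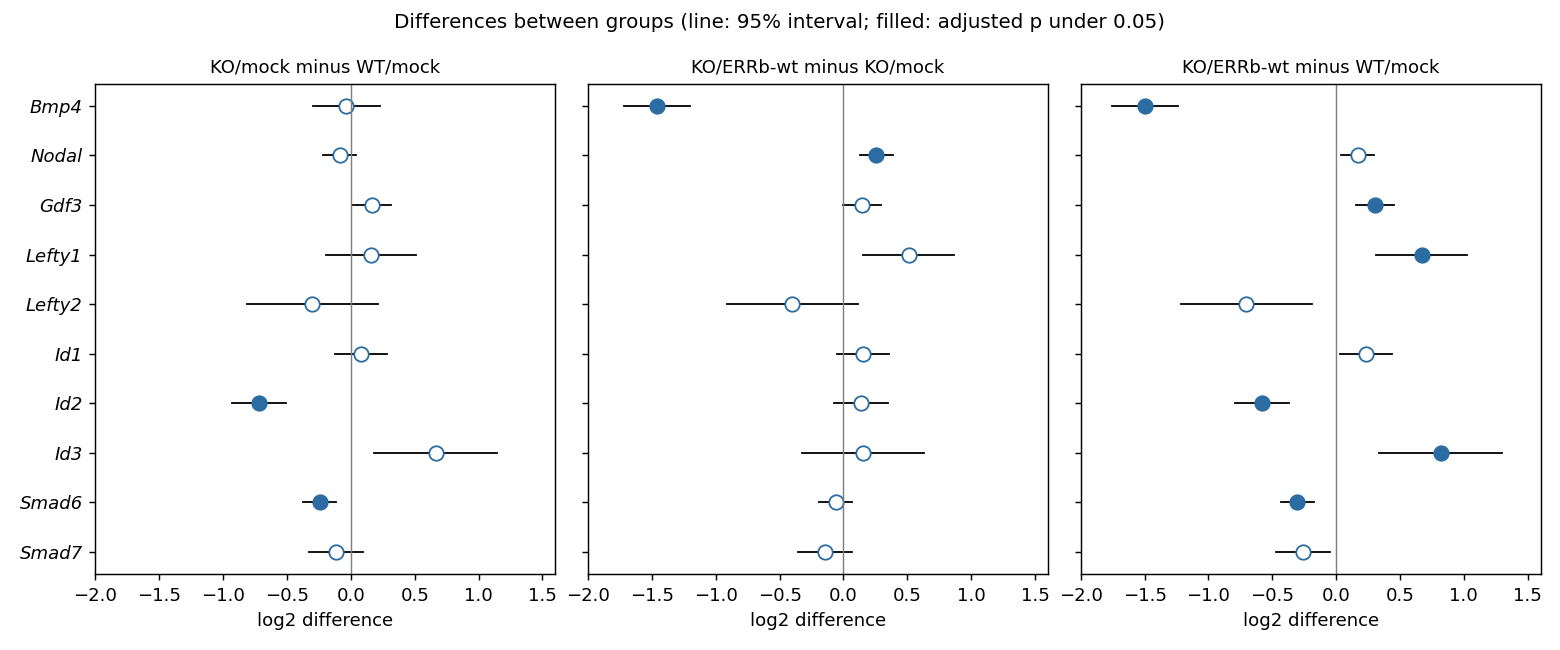
Log2 difference of each of the 10 genes (horizontal axis) in the 3 comparisons of 4 arrays with 4; points are limma estimates, lines their 95% intervals, and filled points have an adjusted p under 0.05. Bmp4 stands at -1.46 and -1.50 in the comparisons with KO/ERRb-wt, and the 3 Id genes fall on both sides of 0 against WT/mock.

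Of the 10 genes, 2 were called on KO/mock against WT/mock, both lower (Id2 and Smad6), where 5.58% of all genes were called, 2.11% higher and 3.47% lower, and 10.8% of the 9761 genes with a mean of at least 6. These 2 were also the ones whose arrays did not overlap, as did not those of 15.9% of all genes and 29.2% of the brighter ones. On KO/ERRb-wt against KO/mock 2 were called, Nodal higher and Bmp4 lower, against 4.40% of all genes, 1.24% higher and 3.17% lower, and 8.30% of the brighter ones. Here 3 genes had arrays that did not overlap, Gdf3 and Nodal higher and Bmp4 lower, against 17.0% and 28.0%. On KO/ERRb-wt against WT/mock 6 were called, Gdf3, Lefty1 and Id3 higher and Bmp4, Id2 and Smad6 lower. Of all genes 20.8% were called in that comparison, 8.82% higher and 12.0% lower, and 37.8% of those with a mean of at least 6, a level that 8 of the 10 reached. Here 9 of the 10 genes had arrays that did not overlap, against 28.5% of all genes and 49.5% of the brighter ones. The median difference of the 10 genes was -0.06, 0.14 and -0.04 in the 3 comparisons, and that of all genes 0.00, 0.02 and 0.03. The comparisons share arrays, so their calls are not independent.

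Other genes of the pathways were taken from 8 lists, of which 112 of 122 genes were measured. On KO/mock against WT/mock 3 were called higher and 8 lower, on KO/ERRb-wt against KO/mock 1 higher and 5 lower, and on KO/ERRb-wt against WT/mock 6 higher and 15 lower, with medians of -0.02, 0.04 and 0.05. Of all genes 5.58%, 4.40% and 20.8% were called in these comparisons, with more lower than higher in each.

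The receptors held the most calls on KO/mock. Of 18 receptors and co-receptors, 1 was called higher and 3 lower against WT/mock. In that comparison 5.58% of all genes were called, and 10.8% of those with a mean of at least 6. The betaglycan gene Tgfbr3, a co-receptor for TGF-beta ligands, rose from 5.65 ± 0.19 (SD, n = 4) to 6.44 ± 0.16, by 0.79 ± 0.11 (SE; limma, adjusted p = 0.00247). The BMP type I receptor gene Bmpr1a fell by 0.37 ± 0.06 (adjusted p = 0.00478) and the Activin and Nodal type I receptor gene Acvr1b by 0.38 ± 0.06 (adjusted p = 0.00583). Bmpr1a lies on chromosome 14, whose median was -0.41. The BMP type II receptor gene Bmpr2, named after its values were seen, fell by 0.54 ± 0.13 (adjusted p = 0.049). On KO/ERRb-wt against WT/mock Tgfbr3 rose by 1.23 ± 0.11, and 4 were called lower: Bmpr2 fell by 1.01 ± 0.13, Acvr1b by 0.64 ± 0.06, Bmpr1a by 0.51 ± 0.06 and, also named after its values were seen, the type I receptor gene Acvr1 by 0.51 ± 0.09 (adjusted p = 0.00267, and 0.0608 on clone averages). None of the 18 was called between KO/ERRb-wt and KO/mock. The Nodal co-receptor gene Tdgf1 was not called in any comparison, with a mean of 11.36 on WT/mock, 11.25 on KO/mock and 11.35 on KO/ERRb-wt. Among the KO/mock calls, that of Bmpr1a ended without WT/mock clone 5-2 (adjusted p = 0.0648) or KO/mock clone 8-4 (adjusted p = 0.0586), that of Acvr1b without KO/mock clone 8-4 (adjusted p = 0.0859), and that of Bmpr2 without any of 10 single arrays (all but replicate 2 of clone 5-5 and of clone 12-3) or without clone 5-2, 8-3, 8-4 or 12-1 (adjusted p up to 0.368).

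Of the ligands outside the 10 genes, Bmp7 and Tgfb1 were called. Of 17 other BMP and GDF ligands, none was called between KO/ERRb-wt and KO/mock, and Bmp7 was the one called against WT/mock, where it fell by 0.55 ± 0.14 (SE; limma, adjusted p = 0.018), a call that ended without WT/mock clone 5-2 replicate 2 and without clone 5-2, 12-1 or 12-3 (adjusted p up to 0.177). Of 8 Activin, inhibin and TGF-beta ligands 1 was called lower in both comparisons with KO/ERRb-wt, Tgfb1, the gene of TGF-beta 1. It fell by 0.70 ± 0.11 against WT/mock (adjusted p = 0.000941), which held in every alternative run, and by 0.47 ± 0.11 against KO/mock (adjusted p = 0.0368). The latter call ended without either array of clone 5-2, 8-3 or 12-3, without clone 8-4 replicate 2 or clone 12-1 replicate 1, and without clone 8-3, 12-1 or 12-3 (adjusted p up to 0.24).

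Of 14 Smads and nuclear partners, Smad1, which carries the BMP signal, was the one called on KO/ERRb-wt against KO/mock. It fell by 0.27 ± 0.05 (adjusted p = 0.0208), which ended without either array of KO/mock clone 8-3, without KO/ERRb-wt clone 12-3 replicate 2, and without clone 8-3, 8-4 or 12-3 (adjusted p up to 0.154). Against WT/mock Smad1 fell by 0.38 ± 0.05 (adjusted p = 0.000579). Among the nuclear partners, the co-repressor gene Tgif1 fell by 0.34 ± 0.06 on KO/ERRb-wt against WT/mock (adjusted p = 0.00198, and 0.0539 on clone averages), and the related Tgif2 rose by 0.24 ± 0.06 (adjusted p = 0.0191). The Tgif2 call ended without WT/mock clone 5-2 replicate 1 or without clone 5-2, 5-5, 12-1 or 12-3 (adjusted p up to 0.0895). On KO/mock Tgif1 fell by 0.24 ± 0.06 (adjusted p = 0.038), a call that ended without either array of clone 5-2 or 8-4, replicate 2 of clone 5-5 or 12-3 or replicate 1 of clone 8-3, and without any clone but 12-3 (adjusted p up to 0.217).

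Of 10 regulators of Smad and receptor turnover, Nedd4l, a ubiquitin ligase gene, was the one called. It fell by 0.75 ± 0.09 on KO/ERRb-wt against WT/mock (limma, adjusted p = 0.000202), which held in every alternative run, and by 0.45 ± 0.09 on KO/mock (adjusted p = 0.0155). The KO/mock call ended without WT/mock clone 5-2 replicate 2, clone 5-2 or clone 8-4 (adjusted p up to 0.141).

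Among 20 secreted antagonists and processing enzymes, Pcsk6, a convertase that cleaves Nodal and other precursors, was lower at each step. It fell by 0.54 ± 0.06 on KO/mock against WT/mock (limma, adjusted p = 0.000431) and by 0.42 ± 0.06 on KO/ERRb-wt against KO/mock (adjusted p = 0.00345), and the latter call ended without KO/mock clone 8-3 (adjusted p = 0.0562). The related convertase gene Furin, named after its values were seen, fell by 0.44 ± 0.08 on KO/ERRb-wt against WT/mock (adjusted p = 0.00362, and 0.0688 on clone averages). Follistatin (Fst), which binds Activin, rose by 0.99 ± 0.17 in that comparison (adjusted p = 0.00207, and 0.0593 on clone averages). Twsg1, a BMP-binding protein gene, fell by 0.49 ± 0.06 (adjusted p = 0.000225). On KO/mock against WT/mock Twsg1 fell by 0.30 ± 0.06 (adjusted p = 0.0157), which ended without replicate 2 of clone 5-2 or 8-4 and without clone 5-2, 8-3 or 8-4 (adjusted p up to 0.133). In this list 1 gene was called higher and 4 lower on KO/ERRb-wt against WT/mock, the last being Tll1, a BMP1-related protease gene also named after its values were seen (-0.32 ± 0.09, adjusted p = 0.0345), whose call ended without WT/mock clone 5-2 replicate 1, either array of clone 5-5, clone 12-1 replicate 1 or clone 12-3 replicate 2, and without clone 5-5, 8-4, 12-1 or 12-3 (adjusted p up to 0.143).

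Of 14 other BMP-induced genes, a list that includes the fourth Id gene, 1 was called higher and 2 lower on KO/ERRb-wt against KO/mock. Dusp9, a phosphatase that acts on ERK, fell by 0.70 ± 0.11 (limma, adjusted p = 0.00647), a call that ended without KO/mock clone 8-3 (adjusted p = 0.0791) or KO/ERRb-wt clone 12-3 (adjusted p = 0.0504). Against WT/mock 2 of the 14 were called higher and 2 lower. Dusp9 fell by 1.13 ± 0.11 (adjusted p = 4.27e-05). Prdm1, a transcriptional repressor gene of germ cell specification, rose by 0.62 ± 0.10 (adjusted p = 0.0018), which held in every alternative run, and Cdx2, a trophoblast and hindgut transcription factor gene, rose by 0.54 ± 0.14 (adjusted p = 0.0221). On KO/mock Prdm1 rose by 0.47 ± 0.10 (adjusted p = 0.0268), which ended without replicate 1 of clone 5-2 or 5-5, either array of clone 8-3 or replicate 2 of clone 8-4, and without clone 5-2, 5-5 or 8-3 (adjusted p up to 0.159). Dusp9 fell there by 0.44 ± 0.11 (adjusted p = 0.0421), which ended without any of 10 single arrays (all but replicate 2 of clone 5-5 and of clone 8-3) and without clone 5-2, 8-4, 12-1 or 12-3 (adjusted p up to 0.322). The Cdx2 call ended without KO/ERRb-wt clone 12-1 replicate 2 and without clone 5-2 or 12-1 (adjusted p up to 0.135). The transcription factor gene Tfap2a fell by 0.47 ± 0.08 against KO/mock (adjusted p = 0.0123), which ended without clone 8-3, 12-1 or 12-3 (adjusted p up to 0.11). Gata2 rose by 0.76 ± 0.16 from a mean of 5.32 to 6.09 (adjusted p = 0.0266), which ended without KO/mock clone 8-3 replicate 1, clone 8-4 replicate 1 or either array of KO/ERRb-wt clone 12-3, and without clone 8-3, 8-4 or 12-3 (adjusted p up to 0.176). Id4, named after its values were seen, fell by 0.35 ± 0.09 against WT/mock (adjusted p = 0.0253), and the call ended without WT/mock clone 5-2 replicate 1, clone 5-5 replicate 2 or either array of KO/ERRb-wt clone 12-1, and without clone 5-2, 5-5 or 12-1 (adjusted p up to 0.151). Of 11 other Nodal and Activin-induced genes, none was called on KO/ERRb-wt against KO/mock, and Trh, the thyrotropin-releasing hormone gene, was called higher in the other 2 comparisons. Trh rose by 0.51 ± 0.07 on KO/ERRb-wt against WT/mock (adjusted p = 0.000451), which held in every alternative run, and by 0.29 ± 0.07 on KO/mock (adjusted p = 0.0362). The KO/mock call ended without either array of clone 5-2 or 8-4, replicate 1 of clone 8-3 or replicate 2 of clone 12-3, and without any clone but 5-5 (adjusted p up to 0.294).

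**Figure D4:**
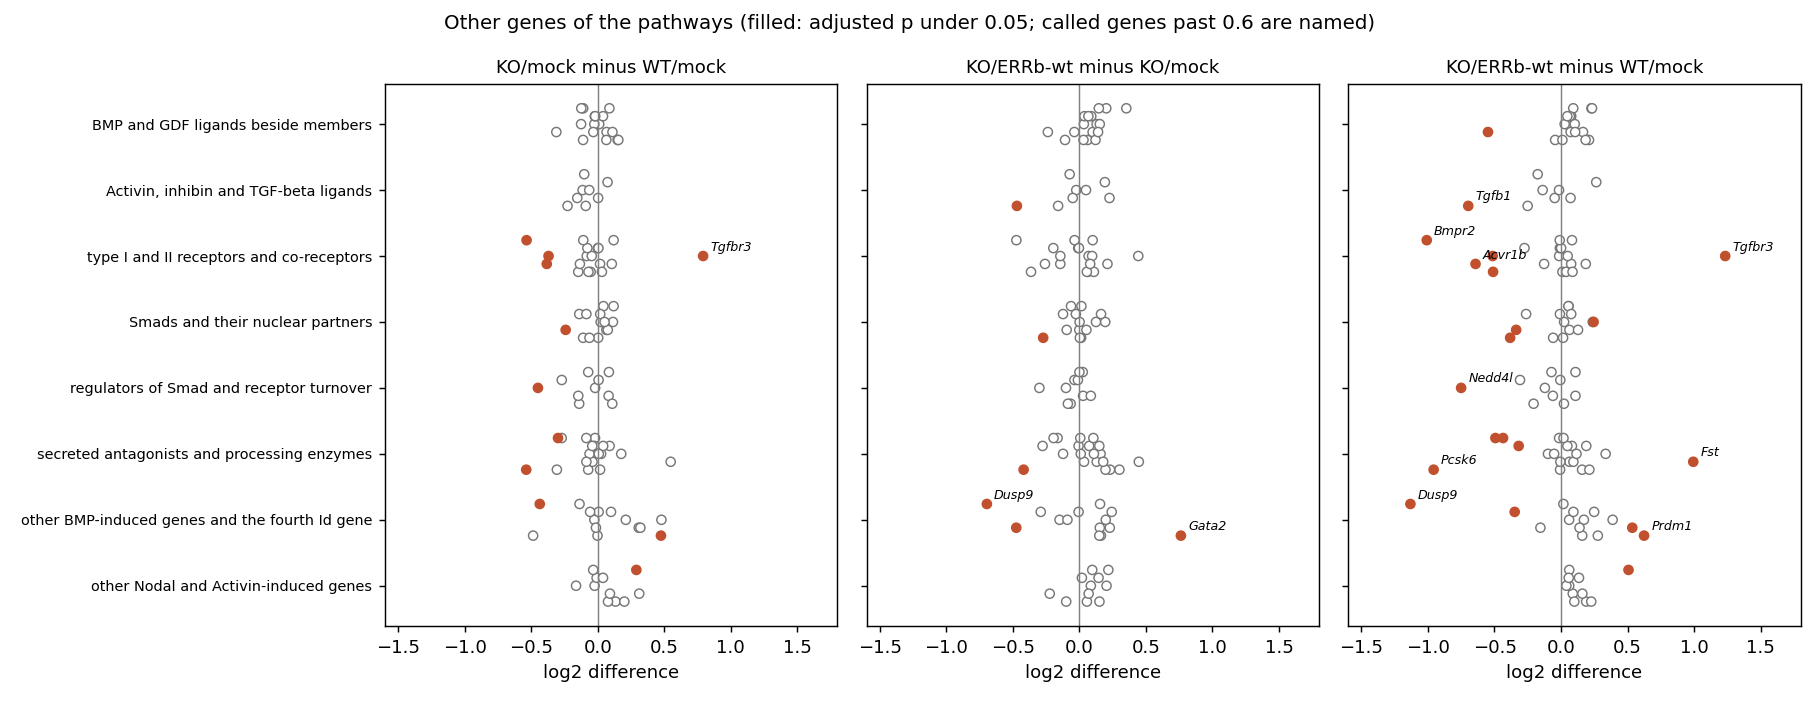
Log2 differences of the measured genes of the 8 pathway lists in the 3 comparisons; each point is a gene and filled points have an adjusted p under 0.05. Most of the 112 genes lie near 0, and more of the called genes lie below 0 than above it in all 3 comparisons. The same holds for the called genes among all 22180.

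Genes whose pattern over the 12 arrays was most like that of a member were sought among 9122 candidates, by Pearson's r, as a description. For Bmp4 these were Coro6 and Nfatc2ip, both at r = 0.97, and Tfcp2l1, a naive pluripotency factor gene, also at 0.97. The arrays fall into separate sets for Bmp4, and over the 8 mock arrays alone r was 0.30, 0.26 and 0.60. For Id1 they were Myc at 0.93, Pgam5 at 0.92 and Spry4 at 0.91, and these stood at 0.91, 0.89 and 0.89 over the 8 mock arrays. For Nodal they were Itpripl1 at 0.96, Xlr3a at 0.90 and Susd6 at 0.90, with 0.88, 0.63 and 0.57 over the mock arrays.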

How the data were processed

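RNA of 12 cultures was hybridised to Affymetrix MoGene 2.0 ST arrays. The deposited values are on the log2 scale. Per the submitters' processing notes the authors used RMA and the Expression Console software of Affymetrix, with no version named. RMA forces arrays to a common distribution, so a shift of all genes would not show. The table holds 41345 probe sets, of which 23521 have 1 gene symbol, 1814 several and 16010 none. A gene was read from its probe set with the highest mean over the 12 arrays, and none was named from a probe set with several symbols.

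The 3 groups were fitted with limma 3.58.1 (R 4.3.3, statmod 1.5.0) on all probe sets, with the clone as a random block (correlation 0.0286) and Benjamini-Hochberg adjustment over all of them; a call is an adjusted p under 0.05. The script was tested on simulated data. The 2 arrays of a clone may share more than the labels say, so p-values measure the spread between these arrays. The number of arrays limits the precision. No detection calls were used, and a mean of at least 6 served only as a mark of brightness. Members and gene lists were chosen with earlier results of these data known. The text names all 10 members, of each pathway list up to 3 called genes of smallest adjusted p in a comparison, and the 3 genes most like Bmp4, Id1 and Nodal; genes outside this rule are said to be named after their values were seen. Promoters came from RefSeq, GRCm38.p6. Alternatives were clone averages, a replicate block, other normalizations, weights, priors and filters, and leaving out each array or clone.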

Additional observations from a re-analysis of the deposited data

Results flagged for a closer look

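Among 30 sets of 4 arrays (10 genes in 3 groups), 1 held an array far from the others, and chance alone is expected to give about 1 in 20. Smad7 read 7.89 on WT/mock clone 5-5 replicate 2, against 7.44, 7.47 and 7.46 on the other WT/mock arrays. Without that array KO/mock differed from WT/mock in Smad7 by -0.0060 (limma, adjusted p = 0.978) and KO/ERRb-wt by -0.15 (adjusted p = 0.125).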

How the results depend on the processing

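The decrease of Bmp4 and of Id2 against WT/mock on KO/ERRb-wt kept its call in every alternative run in which the gene had a value. With the arrays of each clone averaged, 2 clones against 2, KO/mock against WT/mock gave 0 members called lower, 0 pathway genes called higher, 0 called lower and 10 probe sets called in all. KO/ERRb-wt against KO/mock then gave 0 members called higher and 0 lower, 0 pathway genes higher and 0 lower and 0 probe sets in all by limma. KO/ERRb-wt against WT/mock gave 0 members higher, 3 pathway genes higher and 9 lower, and 2251 probe sets. The members lost there were Gdf3 (limma, adjusted p = 0.106), Lefty1 (0.113), Id3 (0.10) and Smad6 (0.0675).

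Replicate numbers lie within clones. Arrays of the same number in different groups had a median correlation of deviations of 0.04 (from -0.32 to 0.29), and arrays of other numbers -0.08. Such a median over many genes does not speak for single genes. Id1 read higher on replicate 2 than on replicate 1 in every clone, and Id3 in every clone but 8-3. Whether arrays of the same number share a batch was not tested. The replicate block left 1 member (Id2) and 5 pathway genes called lower on KO/mock. With only the 2 groups compared, KO/mock had 1 member lower, 1 pathway gene higher and 5 lower, and KO/ERRb-wt against KO/mock 0 members higher, 0 pathway genes higher, 3 lower and 777 probe sets. In the latter comparison, quantile normalization gave 2 pathway genes higher and 3 lower, median centring 0 members higher, and array weights 2 pathway genes higher. A trended, robust prior gave 1 member lower and 5 pathway genes higher on KO/mock, and 3 pathway genes higher and 8 lower on KO/ERRb-wt against KO/mock. Without dim probe sets, which leaves Id2 and Smad6 with no value, these were 0 members lower and 5 higher pathway genes, then 2 higher and 9 lower.

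Without WT/mock clone 5-2, KO/mock against WT/mock had 1 member lower, 1 pathway gene higher, 2 lower and 531 probe sets, KO/ERRb-wt against KO/mock 0 members higher, and KO/ERRb-wt against WT/mock 0 members higher and 3245 probe sets. Without clone 5-5, KO/mock had 1 member higher, 1 lower and 5 pathway genes higher, and KO/ERRb-wt against KO/mock 4 pathway genes higher. Without clone 8-3, KO/mock had 1 member lower and 1 pathway gene higher, and KO/ERRb-wt against KO/mock 0 members higher, 0 pathway genes higher, 0 lower and 145 probe sets. Without clone 8-4, KO/mock had 1 member lower, 1 pathway gene lower and 560 probe sets, and KO/ERRb-wt against KO/mock 0 members and 0 pathway genes higher. Without clone 12-1, the counts were 1 member and 5 pathway genes lower, then 0 members higher, 2 pathway genes higher and 761 probe sets. Without clone 12-3 they were 1 member lower, then 0 members and 0 pathway genes higher, 1 lower and 333 probe sets, and 0 members higher in KO/ERRb-wt against WT/mock, with 3931 probe sets.

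Leaving out single arrays, KO/mock against WT/mock had 0 to 1 members higher, 1 to 2 lower, 1 to 4 pathway genes higher, 3 to 8 lower and 888 to 1841 probe sets. KO/ERRb-wt against KO/mock had 0 to 1 members higher, 1 lower, 0 to 2 pathway genes higher, 3 to 6 lower and 544 to 1399 probe sets. KO/ERRb-wt against WT/mock had 2 to 4 members higher, 3 to 4 lower, 5 to 9 pathway genes higher, 13 to 16 lower and 4822 to 6526 probe sets.

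Differences with no call that changed sign were, for KO/mock against WT/mock, Bmp4 without KO/mock clone 8-3 replicate 2 (0.049, where leaving out single arrays spanned -0.148 to 0.049) or clone 8-3 (0.125), Lefty1 without clone 5-2 (-0.031) or 8-3 (-0.077), Id1 without 5-2 (-0.046) and Lefty2 without 8-4 (0.094), and for KO/ERRb-wt against KO/mock, Id3 without 8-3 (-0.016). Calls gained in some settings included Id1 on KO/ERRb-wt against WT/mock without clone 5-5 (0.36, limma, adjusted p = 0.0182) and Smad7 with median centring (adjusted p = 0.0493). The cause of these changes was not tested, beyond fewer arrays. Each member has 1 probe set, so the alternative of another probe set was not run.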
